A study of Mus musculus with 6 samples.

Results

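The genes described here are the glucocorticoid receptor gene Nr3c1 and 6 genes known as its targets, Tsc22d3, Fkbp5, Per1, Sgk1, Dusp1 and Zbtb16, 7 genes of the 54232 listed in each count file. They were taken by symbol, and all 7 were found and passed the filter on low counts. The libraries come from mouse (C57/B6) fetal liver cells collected at E13.5 and purified as Ter-119 negative, that is, without the surface marker of late erythroid cells. RNA was sequenced from 3 libraries of these cells at day 0, with no treatment, and from 3 libraries after 30 h in erythropoietin-containing medium, with the solvent DMSO added at 24 h and present for the last 6 h. The DMSO cells are the solvent control of a caspase inhibitor, Z-VAD-FMK, and no cells cultured without DMSO were analysed here, so 30 h of culture and 6 h of DMSO cannot be told apart. The labels do not say whether the medium held a glucocorticoid, from serum or added. The labels do not tie the libraries to separate animals or cultures, and p-values therefore measure the spread among these libraries alone.

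As background, the glucocorticoid receptor is a transcription factor held in the cytoplasm by the HSP90 chaperone machinery until it binds a steroid such as corticosterone. It then enters the nucleus and binds glucocorticoid response elements, short palindromic DNA words, near genes such as Tsc22d3 and Fkbp5. In the red cell lineage the receptor is known for sustaining the self-renewal of early erythroid progenitors under stress, while erythropoietin drives their maturation. Several of its targets, among them Dusp1, Per1 and Sgk1, also answer to other stimuli, including growth factors and stress.

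Library totals ranged from 27754279 to 29949173 counts at day 0 and from 19241780 to 24154481 at 30 h. The biological coefficient of variation was 5.28% within day 0 and 20.5% within 30 h, where replicate 3 stood apart on raw counts (a chi-square per degree of freedom of 99.8 and 55.1 against replicates 1 and 2, which gave 12.1 between them). The summed level of 11 erythroid markers was 1744 to 1943 CPM (counts relative to the TMM-scaled library total) at day 0 and 121600 to 174800 at 30 h, and all 11 were higher. The day 0 cells also held RNA of other liver cells: the summed level of 9 hepatoblast markers was 13010 to 14650 CPM at day 0 and 783 to 2285 at 30 h, with 8 lower. All 7 endothelial markers (172 to 199 CPM at day 0, 30.4 to 38.5 at 30 h) and all 7 mesenchymal markers (1484 to 1896 and 18.0 to 37.9 CPM) were lower too. The summed level of 9 macrophage and monocyte markers was 161 to 176 CPM at day 0 and 191 to 285 at 30 h, with 5 higher and 1 lower. The 8 granulocyte and mast cell markers summed to 2586 to 2668 CPM at day 0 and 1095 to 1252 at 30 h, with 5 lower and 1 higher. The 7 megakaryocyte markers summed to 617 to 738 and 616 to 992 CPM, with 4 lower and 1 higher, and the 8 lymphoid markers to 28.2 to 29.8 and 16.3 to 20.4 CPM, with 3 of the 7 tested lower. No listed gene of these 8 lists was at 0 in all libraries, although Cd3e, a defining T cell marker, had no count outside 1 day 0 library. In such bulk samples a change in the mix of cells and a change of RNA per cell cannot be told apart, and the part of these markers in the results below was not tested.

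The receptor and its targets did not move together. Of the 7 genes, 2 were higher at 30 h (Tsc22d3 and Dusp1), 1 was lower (Fkbp5) and 4 did not pass the test (Nr3c1, Per1, Sgk1 and Zbtb16), by edgeR's quasi-likelihood test with Benjamini-Hochberg adjustment over all genes and a threshold of 0.05. Over the 16150 genes tested, 74.5% were called, made up of 34.4% higher and 40.1% lower at 30 h. In 3 of the 7 genes, those 3, all libraries of one group lay beyond all of the other, as in 79.7% of the genes tested. The median log2 change of the 7 genes was 0.04, and that of all genes tested was -0.09.

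**Figure D1:**
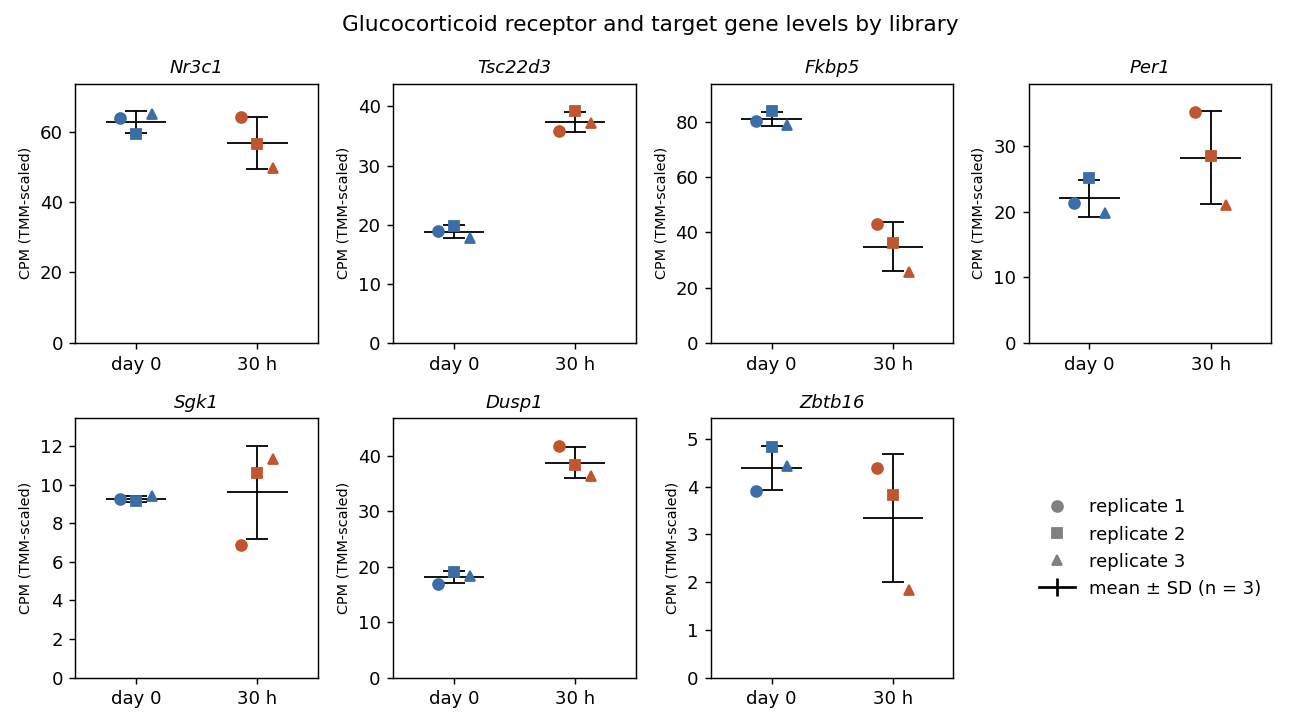
Each panel plots 1 gene, with the level in TMM-scaled CPM on the y axis (from 0) for the 3 libraries at day 0 and the 3 at 30 h; symbols mark the replicate number, and bars give the mean and SD. Tsc22d3 and Dusp1 lie above their day 0 values and Fkbp5 below in all 3 libraries at 30 h, while the groups overlap for the other 4 genes.

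Nr3c1 encodes the receptor itself (chromosome 18, 39410545 to 39519421, minus strand, mm10). Its level was 64.0, 59.3 and 64.9 CPM in day 0 replicates 1, 2 and 3, and 64.2, 56.5 and 49.6 CPM in 30 h replicates 1, 2 and 3. The groups overlapped: 30 h replicate 1 matched the day 0 libraries and replicate 3 was the lowest of all 6. The mean went from 62.7 ± 3.00 to 56.8 ± 7.29 CPM (SD, n = 3), a log2 change of -0.14 with a standard error of 0.12 and a 95% interval from -0.42 to 0.13 (edgeR adjusted p = 0.295). This interval does not show that the receptor's transcript stayed level, since it holds falls as large as its lower bound. Scaling matters for this call. With library totals only, under which the median log2 change over all genes was -0.58 instead of -0.09, Nr3c1 was at -0.63 and passed (edgeR adjusted p = 0.00211), and with upper-quartile scaling, where the median was -0.23, it was at -0.29 and passed (edgeR adjusted p = 0.0191). Under each of these scalings its change lay close to the median of all genes, which in the reported fit placed it at the 48.5th percentile of log2 changes.

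Tsc22d3 encodes GILZ, a leucine zipper protein that carries part of the anti-inflammatory action of glucocorticoids (chromosome X, 140539528 to 140600659, minus strand). It stood at 18.9, 19.8 and 17.7 CPM in the 3 day 0 libraries and at 35.8, 39.2 and 37.2 CPM in the 3 libraries at 30 h. Every 30 h library was above every day 0 library, and the spread within each group was small. The rise was 1.98-fold (log2 change 0.99, SE 0.10, edgeR adjusted p = 5.14e-05). Its coefficient of variation at 30 h, 4.56%, was the lowest of the 7 genes.

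Dusp1 encodes a phosphatase that switches off the MAP kinases p38, JNK and ERK (chromosome 17, 26505590 to 26562128, minus strand). Its level was 16.9, 19.1 and 18.4 CPM at day 0 and 41.7, 38.2 and 36.3 CPM at 30 h. All 3 libraries at 30 h lay above the day 0 range. The rise was 2.14-fold (log2 change 1.10, SE 0.11, edgeR adjusted p = 4.1e-05). Both rises kept their call under every scaling tried, and were smallest with library totals only, at 0.50 for Tsc22d3 and 0.61 for Dusp1. The Dusp1 gene model shares 11 of its 3311 exonic bases with Ergic1 on the opposite strand, whose counts summed to 14220 at day 0 and 1959 at 30 h. The labels do not say whether reads were counted by strand.

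Fkbp5 encodes FKBP51, a co-chaperone that lowers the receptor's affinity for its ligand and is itself induced by the receptor, a short feedback loop (chromosome 17, 28399094 to 28517527, minus strand). It went the other way. Its level was 80.2, 83.8 and 79.0 CPM at day 0 and 43.1, 36.1 and 25.6 CPM at 30 h. All 3 libraries at 30 h were below the day 0 range, with replicate 3 the lowest. The fall was 2.32-fold (log2 change -1.21, SE 0.18, edgeR adjusted p = 0.000409), and it was -1.03 without 30 h replicate 3 and -1.70 with library totals only, past the threshold in both. The summed hepatoblast, endothelial, mesenchymal, granulocyte and mast cell, and lymphoid markers were lower in the same libraries, and their part in the fall of Fkbp5 was not tested.

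Per1 encodes a repressor of the circadian clock that glucocorticoids induce directly (chromosome 11, 69095217 to 69109960, plus strand). Its level was 21.2, 25.1 and 19.7 CPM at day 0 and 35.1, 28.5 and 20.97 CPM at 30 h. Replicates 1 and 2 at 30 h were above the day 0 range and replicate 3 was inside it. The log2 change of 0.36 (SE 0.19, 95% interval -0.08 to 0.81) did not pass (edgeR adjusted p = 0.122), but without 30 h replicate 3 it was 0.54 and passed (edgeR adjusted p = 0.0026). With library totals only its sign turned, to -0.13.

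Sgk1 encodes a serum- and glucocorticoid-induced kinase of the AKT family that acts on ion channels and FOXO factors (chromosome 10, 21882184 to 21999903, plus strand). Its level was 9.24, 9.15 and 9.44 CPM at day 0 and 6.86, 10.6 and 11.3 CPM at 30 h. The day 0 libraries were nearly equal, while at 30 h replicate 1 was below and replicates 2 and 3 above them. The log2 change of 0.04 (SE 0.19, 95% interval -0.40 to 0.48) did not pass (edgeR adjusted p = 0.849), and without 30 h replicate 1 it was 0.30 and just passed (edgeR adjusted p = 0.049). The sign was negative with upper-quartile scaling (-0.08), with library totals only (-0.45) and when low-count genes were kept (-0.05). It was also negative without 30 h replicate 2 (-0.04) or 3 (-0.09).

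Zbtb16 encodes PLZF, a zinc finger repressor and a sensitive target of steroid receptors in many cell types (chromosome 9, 48654297 to 48836222, minus strand). It was the least expressed of the 7 genes, at 3.90, 4.82 and 4.43 CPM at day 0 and 4.39, 3.82 and 1.83 CPM at 30 h. The value of 30 h replicate 3 rests on 29 counts and lies apart from the other 5 libraries, which ran from 64 to 167 counts. The log2 change of -0.37 (SE 0.28, 95% interval -1.03 to 0.28) did not pass (edgeR adjusted p = 0.26). It was -0.09 without 30 h replicate 3, and with library totals only it was -0.86 and passed (edgeR adjusted p = 0.0276).

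**Figure D2:**
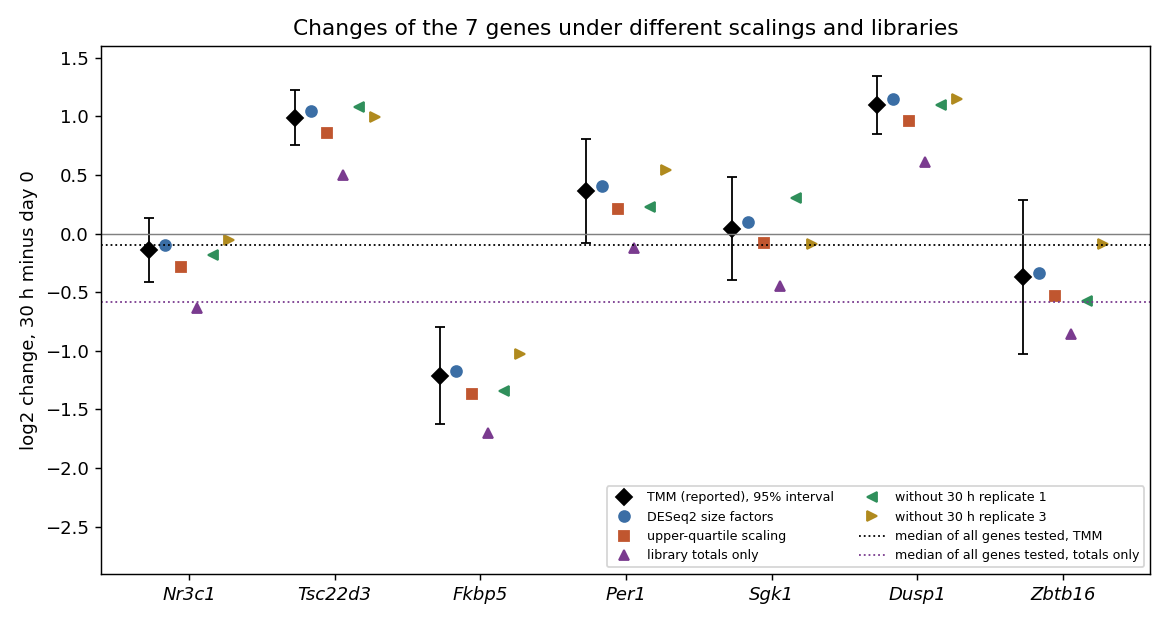
The y axis gives the log2 change, 30 h minus day 0, of each of the 7 genes under the reported TMM scaling (diamonds, with 95% intervals), 3 other scalings, and without 30 h replicate 1 or 3; dotted lines mark the median of all genes tested under TMM (-0.09) and under library totals only (-0.58). Tsc22d3, Dusp1 and Fkbp5 stay on their side of 0 throughout, Nr3c1 moves with the median, and Sgk1 and Per1 cross 0.

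The promoter sequences show where exact matches of the DNA word bound by the receptor occur close to the annotated starts of these genes. Imperfect forms of the full word were not searched. RefSeq promoters (GRCm38.p6, 250 bases before to 50 bases after each start) were at hand for 5 of the 7 genes, 13 windows in all. Both strands were searched for the full palindromic glucocorticoid response element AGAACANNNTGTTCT, for its single arm TGTTCT, for the cyclic AMP response element TGACGTCA and for the E-box CACGTG, the word bound by clock and MYC-type factors. The full element was found in 3 of 32851 promoters of the table (0.00913%), and 1 of these 3 belongs to Sgk1. The other genes with it, Acnat2 and Gm35041, had 21 and 0 counts over all 6 libraries and were not tested. The single arm was in 19% of all promoters, the E-box in 7.15% and the cyclic AMP element in 1.79%. A match is a description of the sequence and shows neither binding nor use of that start, and the counts do not separate transcripts from different starts. The windows are printed 5′ to 3′ on the gene's strand, with every match to one of the 4 words in capitals. The Sgk1 window is shown because it holds the full element, and those of Dusp1, Tsc22d3 and Fkbp5 because these are the genes that passed the test.
Sgk1, chr10:21993640-21993939, plus strand: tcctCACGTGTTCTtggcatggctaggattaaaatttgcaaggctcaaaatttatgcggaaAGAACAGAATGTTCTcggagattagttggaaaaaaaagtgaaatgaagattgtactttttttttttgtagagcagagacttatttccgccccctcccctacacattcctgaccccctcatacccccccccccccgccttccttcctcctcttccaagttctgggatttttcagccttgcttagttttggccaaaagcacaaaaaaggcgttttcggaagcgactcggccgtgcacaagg
Dusp1, chr17:26508423-26508722, minus strand: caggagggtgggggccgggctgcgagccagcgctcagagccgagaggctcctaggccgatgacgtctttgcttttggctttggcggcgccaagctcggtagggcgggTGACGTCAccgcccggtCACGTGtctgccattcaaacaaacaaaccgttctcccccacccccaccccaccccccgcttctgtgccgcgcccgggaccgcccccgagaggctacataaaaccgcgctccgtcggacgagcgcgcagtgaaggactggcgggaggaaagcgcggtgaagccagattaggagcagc
Tsc22d3, chrX:140600473-140600772, minus strand: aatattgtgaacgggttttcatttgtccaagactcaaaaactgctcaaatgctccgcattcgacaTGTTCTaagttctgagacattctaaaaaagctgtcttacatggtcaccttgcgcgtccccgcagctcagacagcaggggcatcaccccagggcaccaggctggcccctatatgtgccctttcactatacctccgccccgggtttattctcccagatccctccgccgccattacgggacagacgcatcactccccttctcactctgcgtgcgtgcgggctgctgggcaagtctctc
Fkbp5, chr17:28486100-28486399, minus strand: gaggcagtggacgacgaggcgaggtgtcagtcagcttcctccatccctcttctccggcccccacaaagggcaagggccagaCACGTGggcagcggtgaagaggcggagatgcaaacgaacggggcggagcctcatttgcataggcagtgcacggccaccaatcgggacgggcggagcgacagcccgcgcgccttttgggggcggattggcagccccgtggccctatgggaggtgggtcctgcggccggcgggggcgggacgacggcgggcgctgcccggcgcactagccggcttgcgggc

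In the Sgk1 window the full element lies at chr10:21993701-21993715, in an intron of the gene's longer transcripts, 189 bases before the start of that window's transcript and 965 bases before the next annotated start. Its letters are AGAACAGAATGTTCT, and each arm also counts as a match of the single arm. A further single arm in the same window overlaps an E-box, which together give the first run of capitals. The other 5 Sgk1 windows held 2 single arms and no full element. The Dusp1 window holds the cyclic AMP element 143 bases and an E-box 126 bases before the start. The Tsc22d3 window of the most upstream start holds 1 single arm, 185 bases before the start, and its other 2 windows hold none of the 4 words. Fkbp5 has 1 window, with 1 E-box. Of the 2 Per1 windows, 1 holds an E-box, 166 bases before its start. Among genes with a window, Sgk1 alone held an exact full element close to a start. It was not called in the reported fit, but just passed without 30 h replicate 1 (edgeR adjusted p = 0.049). Per1, whose windows held no full element, was not called either. The 3 called genes had no exact full element within these 300 bases, which says nothing about imperfect elements there or elements further away.

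Levels can be compared between genes only per length. Per kb of annotated exon, Fkbp5 (8.56 ± 0.26 CPM per kb, SD, n = 3) and Nr3c1 (8.16 ± 0.39) were the highest at day 0 and did not differ beyond their spread. Dusp1 followed at 5.47 ± 0.34, then Tsc22d3 at 4.34 ± 0.24 and Per1 at 3.91 ± 0.49, whose libraries overlapped. Sgk1 stood at 1.89 ± 0.03 and Zbtb16 at 0.83 ± 0.09. At 30 h Dusp1 was the highest at 11.7 ± 0.83 CPM per kb, ahead of Tsc22d3 at 8.61 ± 0.39 and Nr3c1 at 7.39 ± 0.95, whose libraries overlapped. The libraries of Per1 (5.004 ± 1.25) and Fkbp5 (3.69 ± 0.93) overlapped too, and Sgk1 (1.96 ± 0.49) and Zbtb16 (0.63 ± 0.25) remained at the bottom. Fkbp5 moved from rank 1 to rank 5 and Dusp1 from rank 3 to rank 1. The lengths count every annotated exon of a gene, so genes with rarely used exons are set too low.

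**Figure D3:**
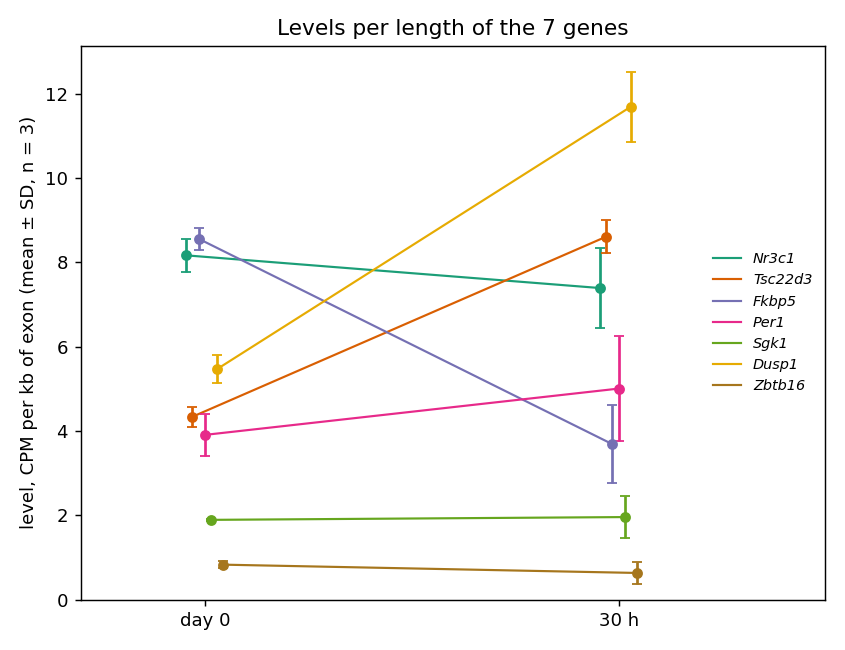
The y axis gives the level per kb of exon (mean ± SD, n = 3) at day 0 and 30 h, with 1 line per gene. The lines of Fkbp5 and Dusp1 cross, Nr3c1 goes from 8.16 to 7.39 CPM per kb, and Sgk1 and Zbtb16 lie lowest in both groups.

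Of 13 chaperone and co-chaperone genes of the receptor, 9 were lower, 3 higher and 1 did not pass, with a median log2 change of -0.30 against -0.09 for all genes tested. The counts of this and the following lists are to be read beside the shares over all genes tested, 34.4% higher and 40.1% lower. Whether any list departs from those shares was not tested. The count of lower genes was 6 with DESeq2 size factors and 6 without day 0 replicate 1, day 0 replicate 2, 30 h replicate 1 or 30 h replicate 2, each left out in turn. Fkbp4 encodes FKBP52, the paralog of FKBP51 that raises the receptor's activity. It fell from 990 ± 20.4 to 430 ± 21.98 CPM, 2.30-fold (edgeR adjusted p = 1.08e-05), close to the 2.32-fold fall of Fkbp5. Hsp90ab1, the abundant cytosolic HSP90, fell from 4263 ± 42.1 to 2726 ± 386 CPM, 1.56-fold (edgeR adjusted p = 0.00163). Hspa1a, a stress-induced HSP70 gene, rose from 0.47 ± 0.11 to 1.40 ± 0.65 CPM (edgeR adjusted p = 0.0064), on 12 to 36 counts a library, and its reads cannot be told with certainty from those of a near-identical neighbour.

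Coregulators of the receptor split. Of 12 genes, 4 were higher, 2 lower and 6 did not pass (median log2 change 0.16). Crebbp, an acetyltransferase that serves as a coactivator, went from 8.15 ± 0.69 to 18.4 ± 3.00 CPM, a 2.27-fold rise (edgeR adjusted p = 0.000192). Smarca4, the BRG1 remodelling ATPase with the highest CPM of the list, went from 265 ± 22.1 to 207 ± 75.8 CPM and did not pass (edgeR adjusted p = 0.231), although leaving out 30 h replicate 1 gave a passing log2 change of -0.57 (edgeR adjusted p = 0.0313). The counts were 7 higher without 30 h replicate 3, and 1 higher and 5 lower with library totals only.

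Genes that supply or inactivate the steroid, with the related steroid receptors, were lower in 5 of the 8 tested, with 1 higher and 2 that did not pass, and 3 more of the 11 listed were too low to test (median log2 change of those tested -1.20). Serpina6 encodes the corticosteroid-binding globulin that hepatocytes secrete. It fell from 978 ± 97.2 to 23.1 ± 11.4 CPM, 42.5-fold (edgeR adjusted p = 8e-06), in the libraries where 8 of 9 hepatoblast markers were also lower. Hsd11b1, whose enzyme regenerates active glucocorticoid inside cells, went from 7.86 ± 0.76 to 18.9 ± 3.65 CPM, a 2.40-fold rise (edgeR adjusted p = 0.000201). The count of higher genes was 2 without 30 h replicate 1. Nr3c2, the mineralocorticoid receptor and closest relative of Nr3c1, stood at 0.22 CPM per kb at day 0 against 8.16 for Nr3c1. Its level was 1.44 ± 0.18 CPM at day 0 and 0.75 ± 0.28 at 30 h (edgeR adjusted p = 0.0198). Its call was lost without day 0 replicate 2 or 30 h replicate 1 (edgeR adjusted p = 0.0694 and 0.0716).

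A wider set of 21 known receptor targets, of which 19 could be tested, went both ways. It had 10 genes higher, 4 lower and 5 that did not pass, with a median log2 change of 0.29. Ddit4, an inhibitor of mTORC1, went from 23.2 ± 1.62 to 139 ± 2.15 CPM, a 5.99-fold rise (edgeR adjusted p = 7.66e-07). Cdkn1c, the cell cycle inhibitor p57, went from 297 ± 30.8 to 25.1 ± 9.40 CPM, an 11.9-fold fall (edgeR adjusted p = 1.77e-05). Hepatoblast and mesenchymal markers were lower in the same libraries (8 of 9 and 7 of 7), and their part in the fall of Cdkn1c was not tested. Mt1, a metallothionein with the highest CPM of the set, rose 1.22-fold (592 ± 30.8 to 723 ± 44.2 CPM, edgeR adjusted p = 0.025). That call did not hold under other settings: its log2 change of 0.29 was -0.20 with library totals only, and it did not pass with upper-quartile scaling, when low-count genes were kept, without any 1 of the day 0 replicates or without 30 h replicate 2 (edgeR adjusted p from 0.0633 to 0.215). The set's counts became 5 higher and 9 lower with library totals only, and 8 lower with no filter on low counts.

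Genes of erythroid progenitors that have been tied to the receptor's action were lower in 5 of 7 cases, with 1 higher and 1 that did not pass (median log2 change -1.28). Myb, a transcription factor that keeps progenitors dividing, went from 188 ± 10.5 to 37.0 ± 5.54 CPM, a 5.07-fold fall (edgeR adjusted p = 3.17e-06). Ppara, a fatty acid-sensing nuclear receptor, fell from 3.36 ± 0.39 to 0.10 ± 0.04 CPM (edgeR adjusted p = 6.11e-06) with 1, 2 and 2 counts in the libraries at 30 h. In the same libraries 8 of 9 hepatoblast markers were also lower, and their part in the fall of Ppara was not tested. Cxcr4, the receptor of the niche chemokine CXCL12, rose 1.43-fold (20.6 ± 1.82 to 29.4 ± 1.64 CPM, edgeR adjusted p = 0.00322), but its log2 change was 0.02 and did not pass with library totals only (edgeR adjusted p = 0.876). Lmo2, a bridging subunit of erythroid transcription complexes with the highest CPM of the list, was at 269 ± 4.63 CPM at day 0 and 255 ± 8.73 CPM at 30 h, which did not pass (edgeR adjusted p = 0.428).

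The clock genes around Per1 were lower or did not pass. Of 13, 7 were lower and 0 higher by edgeR's test, with a median log2 change of -0.58, while 1 was higher at an unadjusted p below 0.05 and limma-trend called 0. DESeq2 called 1 higher, as did the edgeR fit with DESeq2 size factors, with the replicate block, without day 0 replicate 1 and without 30 h replicate 3. With library totals only 12 were lower. The paralogs of Per1 did not pass either: Per2 was at 7.09 ± 0.56 and 5.69 ± 2.14 CPM and Per3 at 5.78 ± 0.59 and 5.59 ± 1.14 CPM at day 0 and 30 h (edgeR adjusted p = 0.316 and 0.841). Per length, Per1 at day 0 stood at 3.91 CPM per kb, Per2 at 1.21 and Per3 at 0.60. Hlf, an output gene of the clock and a transcription factor of stem cells, went from 22.3 ± 1.73 to 2.02 ± 0.67 CPM, a 10.8-fold fall (edgeR adjusted p = 5.15e-06). Csnk1d, a kinase that marks PER proteins for decay, went from 202 ± 3.65 to 122 ± 21.1 CPM, a 1.66-fold fall (edgeR adjusted p = 0.00149).

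Among the 9 other MAP kinase phosphatases tested beside Dusp1, 6 were lower, 2 higher and 1 did not pass (median log2 change -0.60). Dusp8, which acts on JNK and p38, went from 4.32 ± 0.31 to 68.8 ± 23.6 CPM, a 15.9-fold rise (edgeR adjusted p = 7.04e-06), whereas Dusp9, which prefers ERK, went from 116 ± 17.5 to 6.75 ± 1.69 CPM, a 17.2-fold fall (edgeR adjusted p = 2.5e-06). The part of the lower hepatoblast and mesenchymal markers in the fall of Dusp9 was not tested. Per length Dusp8 went from 0.89 to 14.1 CPM per kb, so at 30 h it stood beside Dusp1 at 11.7.

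The paralogs of Sgk1 passed the test in opposite directions. Sgk3 went from 39.4 ± 1.29 to 157 ± 5.86 CPM, a 3.996-fold rise (edgeR adjusted p = 1.3e-06), while Sgk2 went from 4.81 ± 0.66 to 0.20 ± 0.24 CPM (edgeR adjusted p = 5.96e-05), with 1, 8 and 1 counts at 30 h. Whether the lower hepatoblast and mesenchymal markers had a part in the fall of Sgk2 was not tested. Per length, Sgk3 stood at 2.75 CPM per kb at day 0 and Sgk1 at 1.89. In the list of both paralogs with upstream kinases and downstream proteins of SGK1, 5 of 9 were higher, 3 lower and 1 did not pass (median log2 change 0.40), and Foxo3, a FOXO factor that SGK and AKT kinases keep out of the nucleus, went from 74.1 ± 1.62 to 438 ± 165 CPM, a 5.91-fold rise (edgeR adjusted p = 6.02e-05). In the TSC22 family, Tsc22d2 went from 26.3 ± 0.96 to 68.4 ± 13.8 CPM, a 2.61-fold rise (edgeR adjusted p = 8.74e-05). Tsc22d1 (206 ± 5.88 and 213 ± 11.6 CPM) and Tsc22d4 (152 ± 4.51 and 141 ± 26.4 CPM) did not pass (edgeR adjusted p = 0.688 and 0.511). With library totals only, 2 of these 3 genes were lower, Tsc22d1 and Tsc22d4.

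Immediate early genes, which growth factors and handling induce within minutes and among which Dusp1, Per1 and Sgk1 are often counted, were higher in 9 of 15 cases and lower in 2, and 4 did not pass (median log2 change 0.71). Over all genes tested 74.5% were called, 34.4% higher and 40.1% lower. Atf3, a stress-induced factor, went from 1.89 ± 0.20 to 41.0 ± 7.45 CPM, a 21.7-fold rise (edgeR adjusted p = 1.09e-06). Btg2, an antiproliferative gene, rose from 19.2 ± 0.73 to 259 ± 32.6 CPM (edgeR adjusted p = 5.84e-07). Fosb went from 5.59 ± 1.02 to 1.55 ± 0.71 CPM, a 3.68-fold fall (edgeR adjusted p = 0.00102). Myc, with the highest day 0 CPM of the list, went from 191 ± 4.98 to 88.2 ± 15.4 CPM, a 2.16-fold fall (edgeR adjusted p = 0.000163). The count of lower genes was 4 with upper-quartile scaling and 6 with library totals only.

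**Figure D4:**
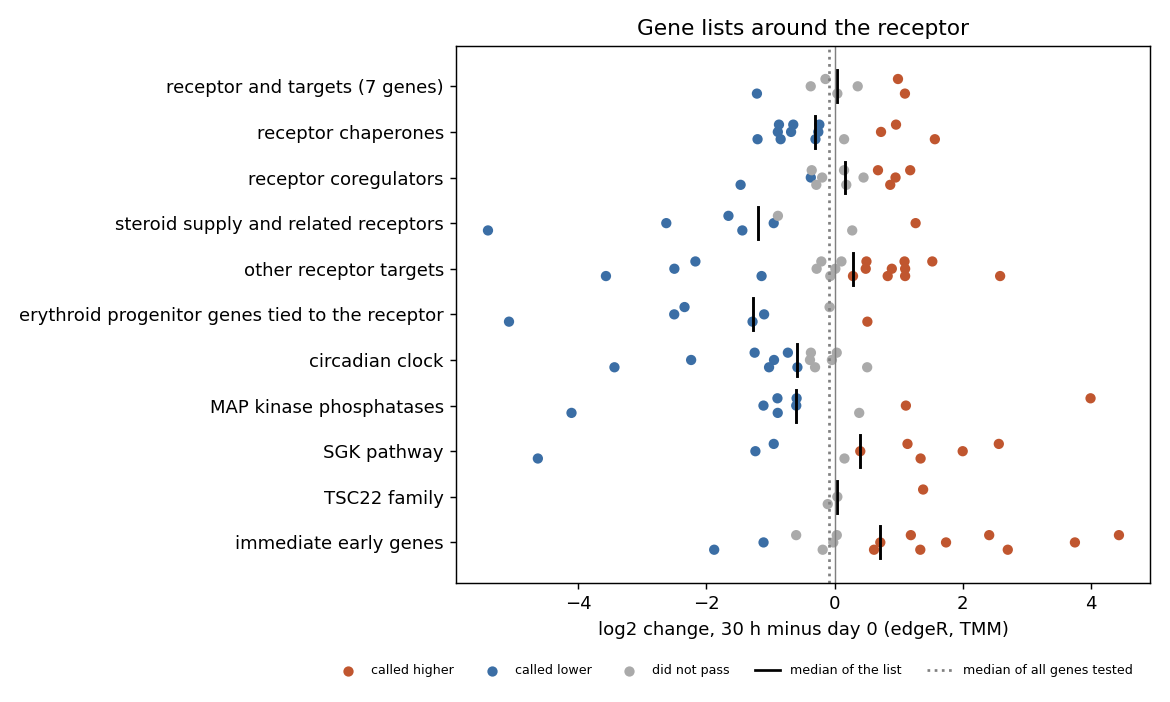
Each point is 1 tested gene, placed by its log2 change (30 h minus day 0, edgeR with TMM) on the x axis and by its list on the y axis; colours mark genes called higher, called lower and not passing, black bars the median of each list and the dotted line the median of all genes tested (-0.09). The chaperone, steroid supply, erythroid progenitor, clock and phosphatase lists have most points below 0, and the 7 genes spread to both sides.

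The profile of Nr3c1 over the 6 libraries was shared closely by genes of other kinds. Among 14362 protein-coding genes, the 5 with the smallest root mean square difference from it, after each profile was centred on its own day 0 mean in log2 CPM, were Cdc73 (0.026), Smarcd2 (0.036), Atp13a3 (0.037), Orc5 (0.041) and Rnf4 (0.043). These 5 were picked as the closest, so every other gene lies further away by construction. On the same measure the receptor's 6 targets ranged from 0.35 for Sgk1 to 0.89 for Dusp1, with Sgk1 at rank 3321 and Dusp1 at rank 8410 of the genes compared. These 6 libraries fall into 2 groups, so the measure mostly reflects the size of the change and the spread at 30 h.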

How the data were processed

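The authors deposited 1 file per library with integer read counts for each Ensembl gene ID. Per the submitters' processing notes the tools were cutadapt 1.13, STAR, HTSeq 0.6.1p1 and DESeq2 with build mm10; their settings, the strand setting and the annotation are not given in the sources used here. Of 54232 IDs, 54165 were found in GENCODE M21 (GRCm38), which gave symbols, positions and exon lengths. Genes were kept by edgeR's filterByExpr (16150), scaled by TMM and tested with edgeR 4.0.16 (R 4.3.3), quasi-likelihood with robust fitting, Benjamini-Hochberg adjustment over all genes and a call at 0.05. Standard errors come from the F statistic, and 95% intervals from its degrees of freedom. CPM divides each count by the TMM-scaled total of the kept genes. The 7 genes, the 10 pathway lists, the markers and the DNA words were chosen with earlier results of these data known. In each pathway list the text names the largest called rise and fall, the gene of highest mean CPM and that with the smallest adjusted p, and all paralogs; 1 coregulator that the rule takes is not reported here. Alternatives were 3 other scalings, no filter, DESeq2 1.42.0, limma-trend (limma 3.58.1), the replicate block and each library left out.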

Additional observations from a re-analysis of the deposited data

How the results depend on the processing

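With library totals only, 3601 genes were called higher in place of 5553, and 3 of the 7 receptor and target genes were lower in place of 1; with upper-quartile scaling 2 were lower. Nr3c1 then passed at -0.631 (totals only) and -0.286 (upper quartile) and Zbtb16 at -0.858 (totals only). Per1 turned to -0.127 with totals only. Sgk1 turned to -0.079 with upper-quartile scaling, -0.447 with totals only and -0.047 when low-count genes were kept. With 1 library left out, Per1 ranged from 0.225 to 0.538 and Sgk1 from -0.092 to 0.303, and each passed in 1 of these 6 fits. Tsc22d3, Dusp1 and Fkbp5 kept direction and call under all 13 alternatives. Of the other named genes, Mt1 turned to -0.202 with totals only, Tsc22d1 to -0.087 (upper quartile), -0.447 (totals only) and -0.048 (no filter), and Per3 to 0.003 and 0.004 with DESeq2 size factors and the DESeq2 test; with 1 library left out, Per3 ranged from -0.165 to 0.075 and Tsc22d4 from -0.183 to 0.033. Over 32 such genes and 13 alternatives, 391 of 416 values kept direction and call. The cause of these shifts was not tested, beyond the scaling itself. Deviations from the group means of samples with the same replicate number had correlations of -0.105, 0.105 and -0.029 for numbers 1, 2 and 3. For samples with different numbers the correlations ranged from -0.108 to 0.141. With 3 libraries a group the deviations are tied to each other, so these values do not settle whether the numbers pair the libraries. The labels do not say what the numbers mean. With the replicate block 5254 genes were higher and 6277 lower, and of the 7 genes 2 were higher and 1 lower. The precision that 3 libraries a group gave for Nr3c1, Per1, Sgk1 and Zbtb16 is that of the 95% intervals given with their values. These intervals rest on a spread shared by both groups for each gene. The biological coefficient of variation was 5.28% within day 0 and 20.5% within 30 h, so they do not describe the spread of either group alone.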
